A study of Mus musculus with 4 samples.

Results

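Gm20412 and Tgm2 are a pair of mouse genes that share a stretch of chromosome 2 on opposite strands. They are 2 of the 50600 genes counted in RNA sequencing libraries of T-helper 2 (Th2) cells. The members were chosen by their counts per kb of exon, strand, exon overlap and rank among all genes in replicates 1, 3 and 4, in which Gm20412 stood far above the enzyme gene around it. Levels, ranks, their ratio and the overlap are therefore given as a description, with no test. Differences between these libraries come from the same counts and are also given without a test.

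The study holds 4 libraries of 1 group, biological replicates 1 to 4 of primary Th2 cells from the mouse strain C57BL/6NJ, with no treated group and no second cell type. Each replicate has its own biosample in the labels, all share 1 donor label, age is unknown and sex was not collected. Nothing there says whether the cultures were separate, so p-values over the libraries speak of the spread of these libraries alone, part of which may be technical. The labels speak of total RNA, the title of the library protocol of poly(A) selection, and each file header carries 72 h, a time whose meaning is not given. The values are fragment counts per gene on the annotated strand of that gene.

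Tgm2 encodes transglutaminase 2, an enzyme that joins glutamine and lysine side chains of proteins in the presence of calcium, and that also binds GTP. It is known from macrophages, endothelium and fibroblasts, where it acts inside cells and on the extracellular matrix, and its gene responds to retinoic acid. Gm20412 is a predicted gene whose transcript is annotated as a processed transcript without a coding sequence, and no role is known for it here.

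Gm20412 (ENSMUSG00000092283.1) lies on the plus strand of chromosome 2 from 158117154 to 158117905 (mm10). It has 2 exons, of 521 and 112 bp, 633 bp in all. Tgm2 (ENSMUSG00000037820.15) lies on the minus strand from 158116402 to 158146436, with 4608 bp of exons in 14 blocks. The last exon of Tgm2 runs from 158116402 to 158117951 and is 1550 bp long. All 633 bp of the Gm20412 exons fall inside it, which is 40.8% of that exon and 13.7% of the exonic bases of Tgm2. Of these, 528 bp lie opposite the 3′ UTR of Tgm2, 3 bp opposite the stop codon and 102 bp opposite the end of the coding sequence. Gm20412 starts 752 bp inside the 3′ end of Tgm2.

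The stretch in which the second exon of Gm20412 faces the end of the Tgm2 reading frame is shown on both strands, because each fragment from these bases is assigned to a gene by its strand alone. It covers chr2:158117801-158117905 (mm10), 105 bases taken from the GENCODE vM21 transcripts. Both lines are written 5′ to 3′, Gm20412 on the plus strand and Tgm2 on the minus strand, and the capitals mark the stop codon of Tgm2 and its complement.
Gm20412: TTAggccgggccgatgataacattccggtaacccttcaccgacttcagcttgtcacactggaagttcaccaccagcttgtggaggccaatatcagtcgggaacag
Tgm2: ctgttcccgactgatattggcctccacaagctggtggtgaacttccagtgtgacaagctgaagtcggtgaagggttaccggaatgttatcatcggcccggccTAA

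The intron of Gm20412 runs from 158117675 to 158117793, 119 bp, and also lies inside the last exon of Tgm2. Read on the plus strand it begins with GT and ends with AG, the bases that most introns carry at their ends. Read on the minus strand the same bases begin with CT and end with AC.

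**Figure D1:**
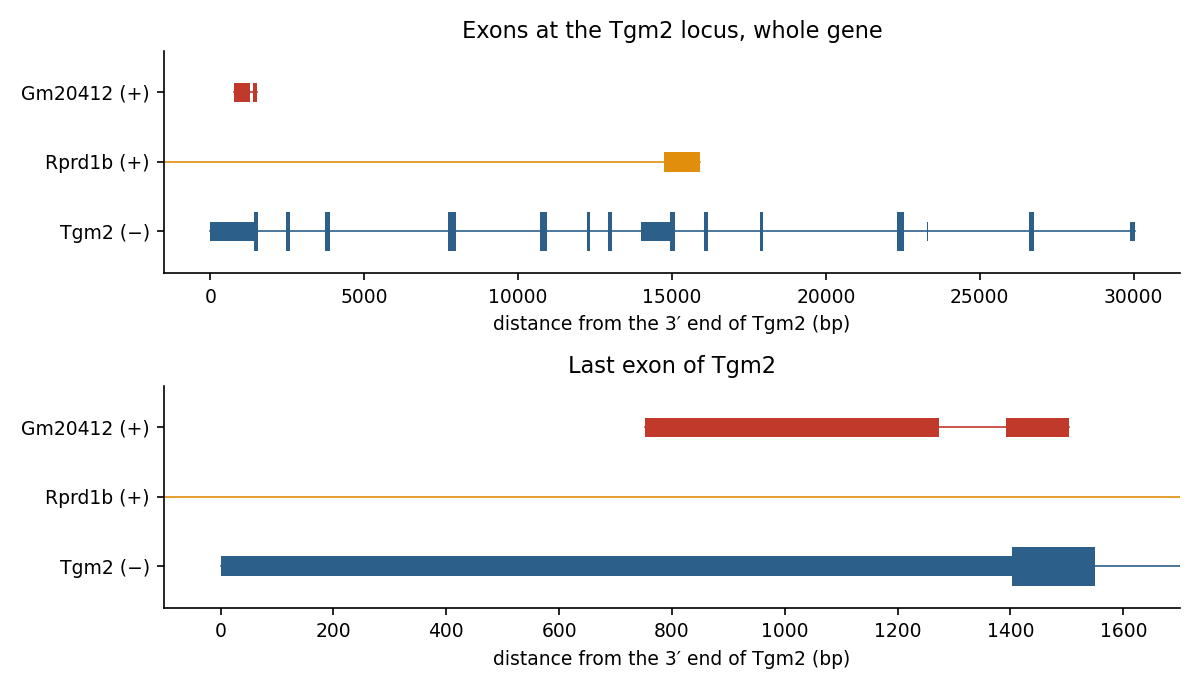
Exons of Gm20412, Rprd1b and Tgm2 plotted by distance in bp from the 3′ end of Tgm2, over the whole gene (top) and the last exon (bottom). Boxes are exons, taller boxes are coding sequence of Tgm2, lines are introns; both exons of Gm20412 lie within the 1550 bp last exon of Tgm2, and the last exon of Rprd1b reaches an inner exon of Tgm2.

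A gene on the same strand as Gm20412 spans it. Rprd1b (ENSMUSG00000027651.16), which encodes a protein that binds the C-terminal domain of RNA polymerase II, runs on the plus strand from 158028497 to 158132297. Its exons share 0 bp with those of Gm20412, which lies in its last intron, 38946 bp past the end of the penultimate exon. The last exon of Rprd1b overlaps exons of Tgm2 by 370 bp, from 158131139 to 158131508, of which 178 bp are coding in Tgm2. In all, 1003 bp (21.8%) of the exonic bases of Tgm2 face exons on the plus strand and 3605 bp (78.2%) do not.

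The gene counts summed to 5016 in replicate 2, against 2388255 in replicate 1, 1929880 in replicate 3 and 1713199 in replicate 4, so that replicate 2 was 341.5-fold below the lowest of the others. With levels in CPM (counts-per-million), the floor of 3 counts stood at 598.09 CPM in replicate 2 and at 1.26 to 1.75 CPM in the others. Replicate 2 is therefore given apart throughout. All 7 Th2 markers (Gata3, Il4, Il5, Il13, Ccr4, Ptgdr2, Stat6) and all 6 T cell markers (Cd3e, Cd3g, Cd4, Cd2, Cd5, Trac) had counts in replicates 1, 3 and 4. Genes with exons opposite exons of another gene were 16.2% of all genes and held 90.74%, 94.22% and 91.33% of the counts in replicates 1, 3 and 4. Whether the counted strand is the strand of the RNA was not tested.

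Gm20412 had 20298 counts in replicate 1, 20743 in replicate 3 and 14137 in replicate 4. Per kb of exon this was 32066, 32769 and 22333 counts. The 3 libraries lay close together, with replicate 4, the least deep of them, lowest. On the CPM scale the levels were 8499, 10748 and 8252, a mean of 9166 ± 1376 (SD, n = 3), so that replicate 3 was highest and replicates 1 and 4 nearly level. Gm20412 alone held 0.850% (exact 95% interval 0.838 to 0.862), 1.075% (1.060 to 1.089) and 0.825% (0.812 to 0.839) of all gene counts. These intervals, like all below, cover counting error only, since without molecular identifiers a fragment need not be a separate molecule.

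Tgm2 had 198 counts in replicate 1, 74 in replicate 3 and 108 in replicate 4. Per kb of exon this was 43.0, 16.1 and 23.4 counts. Here replicate 1 was highest and replicate 3 lowest, the reverse of Gm20412 for replicate 3. The CPM levels were 82.9 (71.8 to 95.3), 38.3 (30.1 to 48.1) and 63.0 (51.7 to 76.1), with a mean of 61.4 ± 22.3 (SD, n = 3). The intervals of replicates 1 and 4 overlapped and that of replicate 3 lay below both.

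Among all genes Gm20412 ranked 8 by CPM in each of replicates 1, 3 and 4 and 9 by mean CPM. By TPM (transcripts-per-million, the counts per kb scaled to a common sum) it ranked 4, 3 and 5, at 19196, 23917 and 18838 TPM, a mean of 20650 ± 2835 (SD, n = 3). Tgm2 ranked 1630, 2231 and 1817 by CPM. Its TPM were 25.7, 11.7 and 19.8, a mean of 19.1 ± 7.03 (SD, n = 3), at ranks 2271, 3022 and 2560. Gm20412 thus stood among the 10 highest genes of each deep library by either measure, and Tgm2 stood no higher than rank 1630 by CPM. Both positions hold for the strand counted. Since every exonic base of Gm20412 faces an exon of Tgm2, counting on the opposite strand would give Tgm2 at least the 55178 fragments that Gm20412 holds over the 3 libraries, and Gm20412 at most the 380 of Tgm2.

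The count per kb of Gm20412 was 746 times that of Tgm2 in replicate 1 (exact 95% interval 649 to 863), 2041 times in replicate 3 (1625 to 2600) and 953 times in replicate 4 (789 to 1162). The intervals of replicates 1 and 4 overlapped, and that of replicate 3 lay above both. Pooled over the 3 libraries the ratio was 1057 (956 to 1172), or 10.05 on the log2 scale, and the mean of the 3 log2 ratios was 10.14 ± 0.76 (SD). Of the fragments assigned to either gene, 99.0%, 99.6% and 99.2% were assigned to Gm20412. If both genes are given the shared 633 bp as their length, a lower limit for the contrast at these bases, the log2 ratio is 7.18. With the span of each gene as its length it is 12.50.

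**Figure D2:**
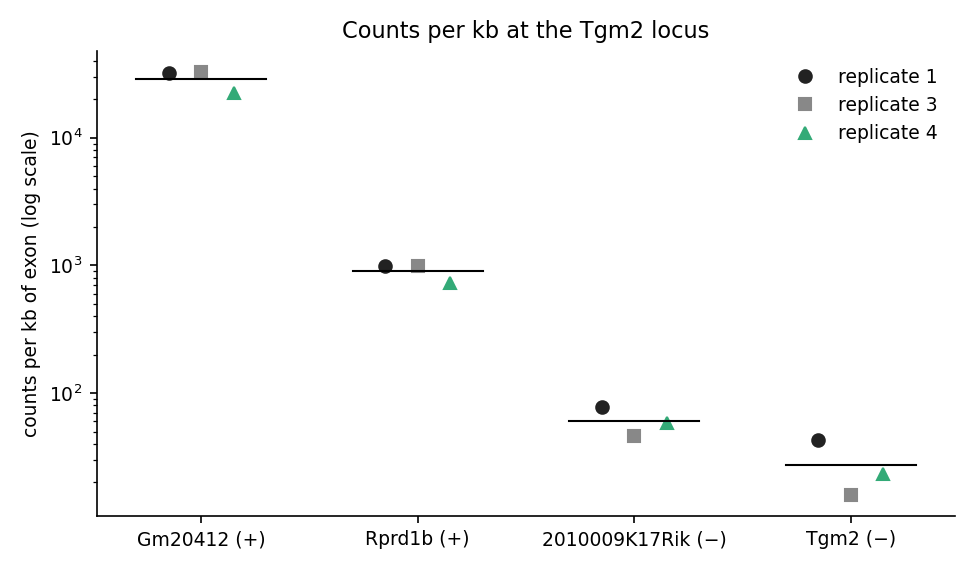
Counts per kb of exon (log axis) in replicates 1, 3 and 4 for the genes with counts at the locus, + and − giving the strand; points are libraries and lines their means. Gm20412 lies between 22333 and 32769 counts per kb and Tgm2 between 16.1 and 43.0, with Rprd1b and 2010009K17Rik between them.

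The scale of CPM moved the spread of the 2 genes in opposite ways. The total of all genes is mostly made of genes with opposite-strand exons, whereas the genes without them summed to 221170, 111566 and 148525 counts in replicates 1, 3 and 4. Scaled like CPM but to the total of the genes without them, Tgm2 stood at 895, 663 and 727, a mean of 762 ± 120 (SD, n = 3) and a ratio of highest to lowest of 1.35, against 2.16 in CPM. Gm20412 so scaled stood at 91776, 185926 and 95183, a ratio of 2.03, against 1.30 in CPM. Replicate 3 remained the lowest library for Tgm2 and the highest for Gm20412 on both scales. The rescaling of Tgm2 was added after the data had been seen.

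Each deep library was set against the other deep libraries with the quasi-likelihood fit of edgeR. A single library has no spread of its own, so these fits cannot show a replicated difference. For the genes only log2 changes are given, with no p-value or count of calls. In replicate 3 against replicates 1 and 4 the log2 change was 0.49 for Gm20412, 0.41 for Rprd1b and −0.80 for Tgm2. TMM scaling put the median gene at −0.11 in replicate 3. Relative to that median the changes come to 0.61, 0.52 and −0.68 in the same order, which were not tested. With DESeq2 size factors in edgeR the log2 changes were 0.60 for Gm20412, 0.52 for Rprd1b and −0.69 for Tgm2. With total counts as scaling they were 0.36, 0.27 and −0.93 in the same order. DESeq2 itself gave 0.60, 0.52 and −0.69. With replicate 2 among the others they were 0.98, 0.78 and −0.77. Replicate 3 also had the highest share of counts in genes with opposite-strand exons, 94.22%, and the part of this in these differences was not tested.

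Replicate 1 against replicates 3 and 4 gave 2 calls in 6922 genes (0.0289%), and replicate 4 against replicates 1 and 3 gave 3 (0.0433%). Neither member was among them. In replicate 1 Gm20412 stood at −0.26 (SE 0.34) and Tgm2 at 0.63 (SE 0.38) on the log2 scale, and in replicate 4 they stood at −0.28 (SE 0.43) and 0.032 (SE 0.48). The biological coefficient of variation that edgeR fitted was 0.310 with replicate 1 alone and 0.337 with replicate 4 alone, but 0.141 with replicate 3 alone, when replicates 1 and 4 are the pair that gives the spread.

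In the shallow library, replicate 2, Gm20412 had 6 counts and Tgm2 had 0. The share of Gm20412 there was 0.120% (exact 95% interval 0.0439 to 0.260), below that of every deep library. Given the mean level of the deep libraries 46.0 counts of Gm20412 and 0.308 of Tgm2 would be met at this depth, so a 0 for Tgm2 carries no information. The ratio of the pair in replicate 2 has a lower bound of 8.57 from these counts and no upper bound.

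Rprd1b had 2 counts in replicate 2, or 399 CPM, against 6456, 6379 and 4731 counts in replicates 1, 3 and 4, or 2703, 3305 and 2762 CPM. In a ranking made after the data had been seen, of the 59 genes with 10 or more counts to be met in replicate 2, Gm20412 and Rprd1b had the lowest ratios of replicate 2 to the mean of the others, 0.130 and 0.136. The median of the 59 ratios was 0.709 and the highest was 1.96. The next lowest were Serbp1 at 0.174, Fam57b at 0.290 and Gm16008 at 0.304. Rprd1b and Serbp1, with 2 counts each in replicate 2, lie under its floor of 598.09 CPM, so no level can be read for them there. For 15 of the 59 genes the whole exact interval of replicate 2 lay below all 3 deep libraries, and for 2 it lay above.

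**Figure D3:**
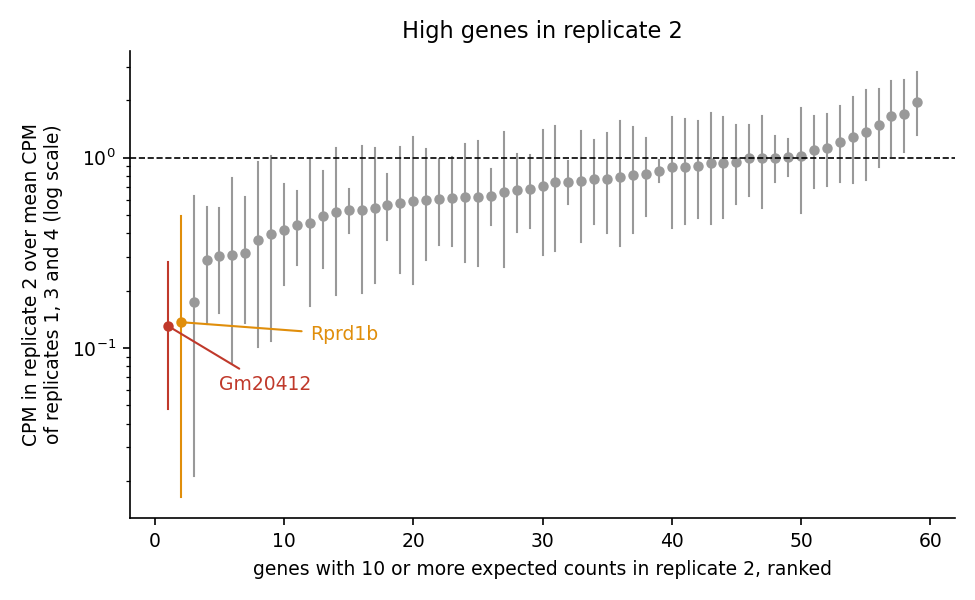
CPM in replicate 2 divided by the mean CPM of replicates 1, 3 and 4 (log axis) for 59 genes in rank order. These are the genes with 10 or more expected counts in replicate 2. Bars are exact 95% Clopper-Pearson intervals, and the dashed line marks a ratio of 1. Gm20412 (0.130) and Rprd1b (0.136) are the lowest points and their bars overlap those of many other genes.

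A test of replicate 2 against the others, also added after the data had been seen, called 33 of 5969 genes (0.553%), all lower in replicate 2. Gm20412 (log2 change −4.11, SE 0.47) and Rprd1b (−4.04, SE 0.58) were among them. The test was prompted by their low counts in this library of 5016 counts, so it restates those counts and is no further support. The median change over all tested genes was −6.98, since most of them had no count in a library where 2017 genes had any. With total counts as scaling the changes were −2.94 for Gm20412 and −2.87 for Rprd1b. Without replicate 1 the change of Gm20412 was −4.09. The size of the Gm20412 change in replicate 2 thus depends on the scaling.

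Rprd1b stayed in a similar proportion to Gm20412, although the intervals of replicates 3 and 4 did not overlap. Its count was 31.8% of that of Gm20412 in replicate 1 (exact 95% interval 30.9 to 32.7), 30.8% (29.9 to 31.6) in replicate 3 and 33.5% (32.4 to 34.6) in replicate 4, a mean of 32.0% ± 1.37 (SD, n = 3), and 33.3% (3.29 to 186) in replicate 2. The SD of the log2 ratio over the 3 deep libraries was 0.061, against a median of 0.191 for the 403 genes with a mean count of 1000 or more, among which Rprd1b ranked 8. The closest by this measure were 1810014B01Rik at 0.0116, Tbp at 0.0247, Serbp1 at 0.0410, Gm16008 at 0.0453 and Rnaseh2a at 0.0465, all on other chromosomes. This ratio was looked at after the values had been seen. All counts here share a library and its depth.

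The other genes within 200000 bp of Tgm2 had few counts or none. The antisense gene 2010009K17Rik, on the minus strand with 130 bp opposite exons of Rprd1b, had 44, 26 and 33 counts in replicates 1, 3 and 4, or 77.6, 45.9 and 58.2 per kb. Tti1, which encodes a partner in the complex that stabilises PI3K-related kinases, had 10, 0 and 7 counts. D630003M21Rik had 1, 1 and 0, and Bpi, whose protein binds bacterial lipopolysaccharide, had 0, 0 and 1. Lbp, which encodes another protein that binds lipopolysaccharide, was at 0 in every library, as were Vstm2l, 1700060C20Rik and Mir7685.

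Gm20412 was set beside all pairs of its kind, in which 90% or more of the exonic bases of the inner gene face exons of a protein-coding gene and both genes together have 300 or more counts. There were 164 such pairs, and the inner gene had the higher count per kb in 148 of them in replicate 1, 149 in replicate 3 and 148 in replicate 4. The direction of this tally also rests on the strand counted, and no count on the opposite strand was analysed here. By mean count per kb Gm20412 was second among the inner genes, behind Gm20721 within Gnas, although in replicate 3 it was higher, at 32769 against 28518. By the same measure Tgm2 was at rank 27 among the outer ones. Tgm2 reached 0.134%, 0.049% and 0.105% of the count per kb of Gm20412 in replicates 1, 3 and 4, against medians of 0.264%, 0.124% and 0.247% over all pairs. That is 0.507, 0.396 and 0.425 of the median. The low share in replicate 3 was thus also seen in the median of the pairs.

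Ordered from the lowest outer share over the 3 libraries, the pair stood at rank 45 of 164, with 0.0946%. The pairs just before it were Gm9823 within Rapgef1 at 0.0903%, Gm43791 within Rgs12 at 0.0924% and Gm45732 within Urb2 at 0.0941%. Those just after it were Gm44364 within H2afj at 0.0972%, Gm26635 within Hic2 at 0.0982% and Gm17178 within Aspscr1 at 0.102%. These neighbours rest on outer genes with few counts, such as 5, 1 and 2 for Rgs12 and 1, 2 and 0 for Hic2 in replicates 1, 3 and 4, so a few counts would alter their order.

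**Figure D4:**
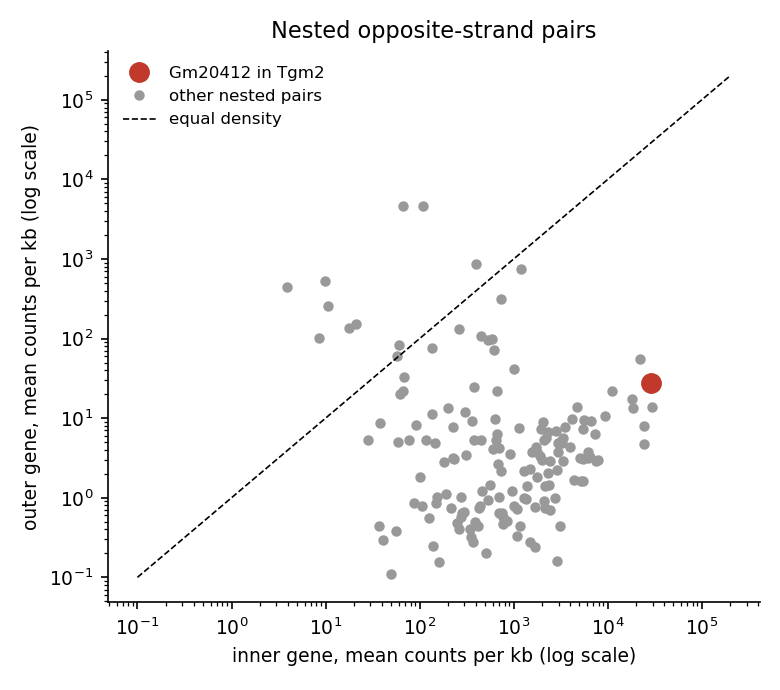
Mean count per kb over replicates 1, 3 and 4 of the outer protein-coding gene against that of the inner gene on the other strand (both log axes), for 158 of the 164 nested pairs; 6 pairs with a mean of 0 on an axis are not drawn and the dashed line marks equal counts per kb. Most pairs lie below the line, with Gm20412 in Tgm2 far to the right, second among the inner genes by mean count per kb.

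The genes most like Gm20412 in level were found by the summed squared difference of log2(TPM + 0.1) over the 3 deep libraries, among genes with a mean count of 10 or more. Among the closest were Gm20721 (0.0715, mean 20744 ± 147 TPM), Gm22953 (0.297, 16954 ± 1095 TPM), Gm17041 (0.309, 17194 ± 650 TPM) and CT010467.1 (0.806, 27273 ± 7208 TPM; SD, n = 3 each). Each of these has exons opposite those of another gene, namely Gnas, Serf2, Cish and Gm42418 in the same order. By mean CPM the neighbours were Gm11175 at rank 7 (9527 ± 1613) and 1810014B01Rik at rank 8 (9204 ± 1459), then Gm16008 at rank 10 (7210 ± 854) and Gm17638 at rank 11 (6415 ± 121; SD, n = 3 each). These face Jund, Hsp90b1, Tnfrsf18 and Eif3d. The ranks from 7 to 9 differ by less than the SD over libraries, Gm20412 among them.

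Levels of other genes around the enzyme were set against 1 TPM with limma on log2(TPM + 0.1) over replicates 1, 3 and 4. Of 17740 genes tested 34.8% lay above 1 TPM and 16.1% below, with a median of 0.02 (log2 over 1 TPM), at an adjusted p of 0.05. The lists were chosen with earlier results of these data known, so their counts are read only against these shares.

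The relatives of Tgm2 were nearly all at or near 0. Of the 9 other members of the transglutaminase list, 1 lay above 1 TPM, 3 below and 1 passed in neither direction, and 4 had no count in the deep libraries, with a median of −2.58 over the 5 tested. Those without a count were Tgm3 and Tgm5, which act in skin and hair, Tgm7, and F13b, the carrier subunit of coagulation factor XIII. Tgm1, the keratinocyte enzyme of the cornified envelope, had 2, 0 and 0 counts, Tgm6 had 3, 0 and 0, and Epb42, the inactive red cell membrane relative, had 1, 0 and 0. F13a1, the catalytic subunit of factor XIII, had 2, 0 and 3 counts (limma adjusted p = 0.0974).

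Tgm4, known as the prostate transglutaminase, was the exception, with 461, 421 and 361 counts, or 60.6, 67.5 and 66.8 TPM (log2 over 1 TPM 5.88, limma adjusted p = 7.83e-09). It had 1 count in replicate 2, where 1.04 would be met at its mean level. Its exons overlap those of Zdhhc3 on the other strand by 830 bp, and Zdhhc3 had 18, 8 and 13 counts in the same libraries. Tgm4 was thus higher per length than Tgm2 in each deep library, and like Gm20412 it faces a gene with fewer counts. Its level and adjusted p hold for the strand counted alone, and whether that is the strand of the RNA was not tested.

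**Figure D5:**
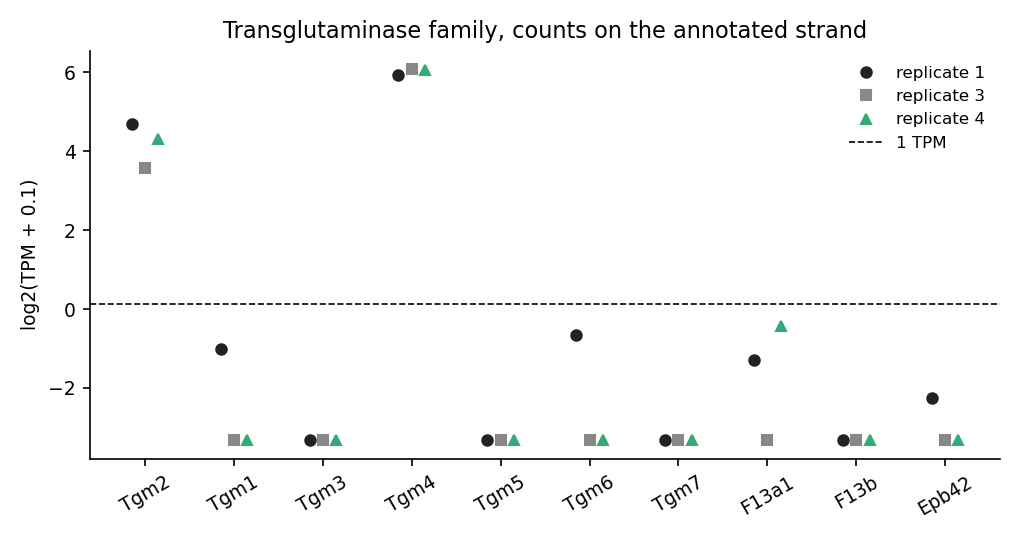
Level of Tgm2 and the 9 other members of the transglutaminase list as log2(TPM + 0.1) in replicates 1, 3 and 4, with the dashed line at 1 TPM. Tgm4 (60.6 to 67.5 TPM) and Tgm2 (11.7 to 25.7 TPM) lie above the line in every library, and the others lie below it.

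Of 16 known regulators of Tgm2 and their receptors, 9 lay above 1 TPM, 0 below (none at an unadjusted limma p under 0.05 either) and 6 in neither, and the retinoid receptor gene Rxrg had no count. Stat3, a transcription factor downstream of interleukin 6, had 17.4, 11.6 and 17.5 TPM, and Hif1a, of the hypoxia response, had 15.7, 7.55 and 16.5. The interleukin 6 receptor gene Il6ra had 8.73, 7.18 and 8.59 TPM. The others above were the retinoid receptor genes Rxrb and Rarb, the interleukin 4 signalling genes Stat6 and Il4ra, Tgfb1 and Nfkb1. Of the 9 above, 5 have opposite-strand exons, namely Stat3, Hif1a, Il6ra, Stat6 and Il4ra, and the share among all genes above 1 TPM was not computed. The median of the list was 2.11 (log2 over 1 TPM).

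Of 14 cell surface and matrix partners 3 lay above, 3 below and 7 in neither, and Adgrg1, an adhesion receptor gene, had no count. Those above were the integrin genes Itgb1, at 32.1, 22.7 and 21.7 TPM, and Itga4, at 4.97, 7.21 and 8.45, and Anxa2, which encodes a calcium-dependent membrane-binding protein, at 9.79, 3.91 and 5.88. Those below were Fn1, the gene of the matrix protein fibronectin, Lrp5, a Wnt co-receptor gene, and Pdgfrb, a growth factor receptor gene. The median was −0.043 (log2 over 1 TPM).

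Of 12 genes whose proteins are known substrates 10 lay above, 1 below (Anxa1, with 0, 0 and 1 counts) and 1 in neither (Rhoa). The median was 3.41 (log2 over 1 TPM). The 6 highest were Actb at 109, 35.4 and 122 TPM, Gapdh at 55.3, 18.9 and 48.2, Hspa5 at 34.4, 11.05 and 34.3, Rac1 at 26.4, 16.1 and 20.3, Vim at 25.2, 11.7 and 18.0 and Nfkbia at 19.7, 8.16 and 24.6. All 6 were lowest in replicate 3, as Tgm2 was. Bax, also above 1 TPM, was highest there, with 14 counts against 10 in each of replicates 1 and 4. Genes without opposite-strand exons summed to 111566 counts in replicate 3, against 221170 in replicate 1 and 148525 in replicate 4. How many of all genes were lowest in replicate 3 was not computed, so the shared direction is not read as a link to Tgm2. The 6 are genes of the cytoskeleton, glycolysis, protein folding and NF-κB inhibition that most cells use.

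Over the 4 lists 23 of the 45 tested genes lay above and 7 below. Of the 23, 11 have opposite-strand exons and 12 do not. The like share among all genes above 1 TPM was not computed, so this split is not read as a trait of the lists. When any of replicates 1, 3 and 4 was left out, limma called 0 members below 1 TPM (0, 0 and 1 at an unadjusted p under 0.05 without replicates 1, 3 and 4), and with replicate 2 included 5 lay above. The counts over all genes moved likewise, to 3, 0 and 71 below without replicates 1, 3 and 4, against 2854 with all 3, and to 1999 above with replicate 2, against 6170.

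Markers of other cells known to use Tgm2 were looked at beside it. Among 8 macrophage markers 5 (Adgre1, Mrc1, Marco, Itgam, Fcgr1) had no count, and the summed level was 138, 139 and 156 TPM in replicates 1, 3 and 4. Nearly all of it was Csf1r, with 1091, 910 and 878 counts and 871 bp of exons opposite Hmgxb3, and the 7 markers without opposite-strand exons summed to 3.81, 3.48 and 4.67 TPM. Among 5 endothelial markers 4 (Cdh5, Kdr, Tek, Emcn) had no count and Pecam1 gave 7.69, 8.09 and 10.7 TPM. Of 6 fibroblast and smooth muscle markers 5 (Col1a1, Col1a2, Pdgfra, Dcn, Acta2) had no count, and the summed level was 0.328, 0 and 0 TPM. Among 4 B cell markers, Cd79a alone had counts, at 2.05, 5.51 and 9.84 TPM.

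The Th2 markers summed to 199, 109 and 195 TPM and the T cell markers to 108, 36.3 and 121 TPM, both lowest in replicate 3. Of the Th2 markers 4 have opposite-strand exons, and the 3 others summed to 142, 73.4 and 144 TPM. The 5 T cell markers without such exons summed to 104, 34.7 and 115 TPM. These sums too were lowest in replicate 3. Among the Th2 markers Il13 was lowest there, at 96.4, 18.8 and 81.9 TPM, but Il4 was highest, at 31.7, 47.6 and 40.6 TPM. Tgm2 was also lowest in replicate 3, whereas the endothelial sum was lowest in replicate 1. The macrophage sum without opposite-strand exons was lowest in replicate 3 too, but it rests on few counts, such as 8, 6 and 6 for Cd68. In bulk RNA fewer cells of a type and less RNA per cell cannot be told apart, and the part of other cells in the Tgm2 counts was not tested.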

How the data were processed

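RNA of Th2 cells was measured in 4 libraries of 1 group. The deposited values are raw fragment counts per gene, made by the authors with featureCounts 1.4.6-p4 on STAR alignments to mm10 with the GENCODE vM13 exons, both mates mapped and strand setting 1, per the file headers. Symbols, biotypes and transcript sequences came from GENCODE vM21 of the same build, and 224 identifiers had no symbol. CPM, TPM, exact Poisson and Clopper-Pearson 95% intervals and opposite-strand exon overlaps (bedtools 2.31.1) were computed in Python 3.11.15 (scipy 1.17.1, numpy 2.4.6, pandas 2.3.3). Genes with at least 1 count in replicates 1, 3 and 4 were tested against 1 TPM with limma 3.58.1 (log2(TPM + 0.1), trended prior). The limma p-values had Benjamini-Hochberg adjustment over all genes tested at 0.05. Single libraries were set against the others with edgeR 4.0.16 in R 4.3.3 (TMM, mean count of 10 or more), with DESeq2 1.42.0 as the alternative. Alternatives changed the pseudocount, the level, filters, scaling, lengths, pair limits and libraries. The members and the lists were chosen with earlier results of these data known. Named were the pair, its family, neighbours within 200000 bp, up to 6 members of each list above 1 TPM and all below, the 5 genes most like Gm20412, 2 ranks on either side of it, 3 pairs on either side of the pair, and cell markers. Other genes were named after their values were seen. A result for 1 gene that this rule names is not reported here. Protein and promoter sequences were not used here.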

Additional observations from a re-analysis of the deposited data

Results flagged for a closer look

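In 7 of 33 named genes examined (21.2%) replicate 2 stood apart from the other 3 libraries by Dixon's criterion at the 95% level, and chance alone gives this in about 1 in 20 groups of values. Over all genes with more than 3 counts in a library, 2121 of 12015 (17.7%) had a library that stood apart in this way. Gm17041 had 2392 CPM in replicate 2 (12 counts), against 5661 to 5937 CPM in replicates 1, 3 and 4. Gm17638 had 4386 CPM (22 counts), against 6312 to 6548 CPM. Gm20721 had 11364 CPM (57 counts), against 21356 to 21929 CPM. These 3 genes have opposite-strand exons, and with Gm20412 they were lower in replicate 2 than in every deep library. Il6ra, Itgb3 and Nfkbia each stood at 199 CPM in replicate 2, which is 1 count, and Itgav at 0 CPM. All 4 of these lie under the 598.09 CPM floor of replicate 2, so no level can be read there. The depth of replicate 2 moves with each of these values, and its part in them was not tested. Gm20412 and Tgm2 themselves did not stand apart by this criterion.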

How the results depend on the processing

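The log2 ratio of Gm20412 to Tgm2 (10.05) was 9.68 to 10.45 with a deep library left out, 12.50 with gene spans as lengths and 7.18 with the shared bases as length. The Gm20412 level was 7174 CPM with replicate 2 and 124295 when scaled to the total of genes without opposite-strand exons, and its rank was 4 by TPM. Of the nested pairs 26.8% had a lower outer share, or 16.5% when 50% of the inner exons had to lie inside. List members above 1 TPM (23) numbered 5 with replicate 2 and 12 without opposite-strand exons. Members below (7) numbered 11 with a pseudocount of 1, at a level of 2 TPM and without a filter, 1 at 0.5 TPM, and 0 to 0 with a deep library left out. Of the 80 counts for single lists and for all genes, above or below the level, 50 stayed within 1.5 times.

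Genes called in replicate 1 (2) numbered 1 without a filter. In replicate 3 (1051) they numbered 591 with DESeq2 size factors and 56 with DESeq2. In replicate 4 (3) 0 were called by edgeR on total counts (39 at an unadjusted p under 0.05) and 0 by DESeq2 (10 at an unadjusted p under 0.05). In replicate 2 (33) they numbered 0 on total counts, 55 with DESeq2 size factors, 123 without a filter, 91 with DESeq2 and 0 to 100 with a deep library left out. With replicate 2 among the others, the log2 change of Gm20412 was 0.24 in replicate 1 and 0.23 in replicate 4, both of the other sign, and 0.98 in replicate 3 (0.49 without replicate 2), no longer called. For Rprd1b the change was 0.16 in replicate 1 and 0.26 in replicate 4, also of the other sign. Tgm2 in replicate 3 (−0.80) was −0.69 with DESeq2 size factors, −0.72 without a filter, −0.69 with DESeq2 and −0.77 with replicate 2. Relative to the median gene it was −0.27 without a filter, against −0.68. In replicate 4 it was −0.031 without a filter, the other sign. The Gm20412 change in replicate 2 was −2.94 on total counts and −4.16 to −3.94 with a deep library left out. The cause of these differences was not tested.

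No paired analysis was possible because all 4 libraries form a single group. Tests of replicate 1, 3 or 4 with a further deep library left out could not be fitted, as no residual degrees of freedom remain. Replicate 2 cannot show levels below 598.09 CPM, which covers Tgm2.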
